A study of Mus musculus with 6 samples.

Results

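Axon guidance ligands and receptors were examined in the transcriptome of corneal keratocytes after *Ptch1* ablation. The members were chosen by gene symbol: the semaphorins of classes 3 to 7, plexins, ephrins, Eph receptors, Slit1 to Slit3, Robo1 to Robo3, the Unc5 receptors, Ntn1, Ntn3, Dcc, Neo1, Rgma and Rgmb. These symbols matched 67 of the 17606 genes measured. Bulk RNA-seq had been performed on keratocytes, the collagen-producing mesenchymal cells of the corneal stroma, sorted by flow cytometry from corneas of 10-week-old mice. Both groups had received 3 doses of tamoxifen, with an interval of 1 month given in the labels. The study's text places keratocyte isolation 1 month after tamoxifen. Added to the age at tamoxifen in that text, this is older than the labelled 10 weeks, a difference not settled here. The Prrx1-creERT;Ptch1 group (n = 3 libraries) carried a tamoxifen-inducible Cre under *Prrx1* with floxed *Ptch1*. Per the study's methods the floxed *Ptch1* line was backcrossed to C57BL/6, and no background is given for the *Prrx1* Cre line. The control group (n = 3 libraries) carried WT in its titles and ctrl in the protocol, and its Cre and floxed alleles were not given in the sources used here. As the study states, *Prrx1*-driven Cre is also active in the corneal endothelium. The question was which guidance genes differ when the Hedgehog receptor gene *Ptch1* is removed from stromal cells.

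Guidance cues are secreted or membrane-bound proteins that attract or repel growing axons and also steer migrating mesenchymal and endothelial cells. Secreted class 3 semaphorins act through neuropilin and plexin complexes, while semaphorins of the other vertebrate classes are held at the membrane and bind plexins directly. Ephrins on one cell bind Eph receptor tyrosine kinases on the next, Slits bind Robo receptors, and netrin-1 binds Dcc, Neo1 and the Unc5 receptors. The corneal stroma is crossed by the sensory nerves of the trigeminal ganglion and is normally free of blood vessels, which is why these cues are studied in this tissue.

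Of the 67 members, 62 had at least 10 counts in at least 3 libraries, and fold changes are given for these only. The other 5, *Epha5*, *Epha8*, *Robo3*, *Unc5c* and *Unc5d*, had at most 7 counts in any library. Library totals ran from 20258439 to 24788063 estimated counts. *Ptch1* totals were higher in the libraries labelled ablated (log2 fold change 4.47 ± 0.35, SE, by edgeR with adjusted p = 6.83e-06), so the gene total does not show the deletion, but the pathway readouts *Gli1* and *Hhip* were higher as well (7.15 and 9.97). Below, ablated means labelled so. The keratocyte markers were present in every library, with a summed level of 61370 to 65030 TPM (transcripts per 1000000, scaled per length) in controls and 42590 to 47100 TPM in ablated libraries over 7 markers, 6 of which fell. In bulk samples, fewer cells of a type and less RNA per cell cannot be told apart.

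Markers of other cells also differed between the groups, and their part in the results below was not tested. Vascular endothelial markers summed to 250.6 to 340.5 TPM in controls and 399.5 to 434.7 TPM in ablated libraries, with 4 of 6 higher (*Pecam1*, *Cdh5*, *Tie1* and *Emcn*). The most abundant marker of that list, *Kdr*, did not pass and had the opposite sign, at 464, 557 and 639 CPM in controls and 402, 428 and 431 CPM in ablated libraries (log2 fold change -0.40, edgeR adjusted p = 0.112). Mural cell markers summed to 155.6 to 162.7 against 337.7 to 354.4 TPM (3 of 5 higher) and leukocyte markers to 4500 to 4800 against 6451 to 7145 TPM (*Cd74* of 6 higher). The leukocyte sum was mostly *Cd74*, with means of 3079 TPM in controls and 5201 TPM in ablated libraries. *Cd68* (log2 fold change -0.13), *Adgre1* (-0.32) and *Lyz2* (-0.28) had the opposite sign, *Ptprc* (0.19) and *Csf1r* (0.23) the same sign, and none of these passed. Epithelial markers summed to 50.8 to 89.3 against 3.43 to 8.60 TPM, with *Krt5*, *Krt14* and *Krt15* lower and *Krt12*, which had no count in the controls, higher. Neuronal markers summed to 1.16 to 5.33 against 2.51 to 14.1 TPM and melanocyte markers to 1.28 to 5.59 against 2.48 to 5.83 TPM. None passed the threshold, but only 2 neuronal and 3 melanocyte genes were tested, and *Dct* had 0 counts in 5 of the 6 libraries. Among 4 Y-linked genes, which summed to 7.71 to 15.3 against 5.70 to 9.66 TPM, *Ddx3y* was lower.

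A member was called when its edgeR adjusted p reached 0.05 and the groups differed at least 2-fold. Of the 62 members, 12 (19.4%) were called, against 5.49% of the 13888 genes tested. There were 6 higher, where 3.36% of all genes were called higher, and 6 lower, where 2.13% were called lower. A further 3 members passed the adjusted p with a smaller fold change, which makes 15 of 62 (24.2%) against 8.48% of all genes, with 8 higher (background 4.68%) and 7 lower (background 3.80%). The groups did not overlap in 31 of the 62, against 27.4% of all genes, with 16 higher (background 14.1%) and 15 lower (background 13.3%). Fitted values were above 0 in 39 of the 62, against 50.4% of all genes. The median log2 fold change of the 62 was 0.22 and that of all genes tested was 0.01. The falls were those of 5 class 3 semaphorins and *Ephb1*. The rises were those of 2 EphA receptors, 2 plexins, *Slit2* and *Rgmb*.

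**Figure D1:**
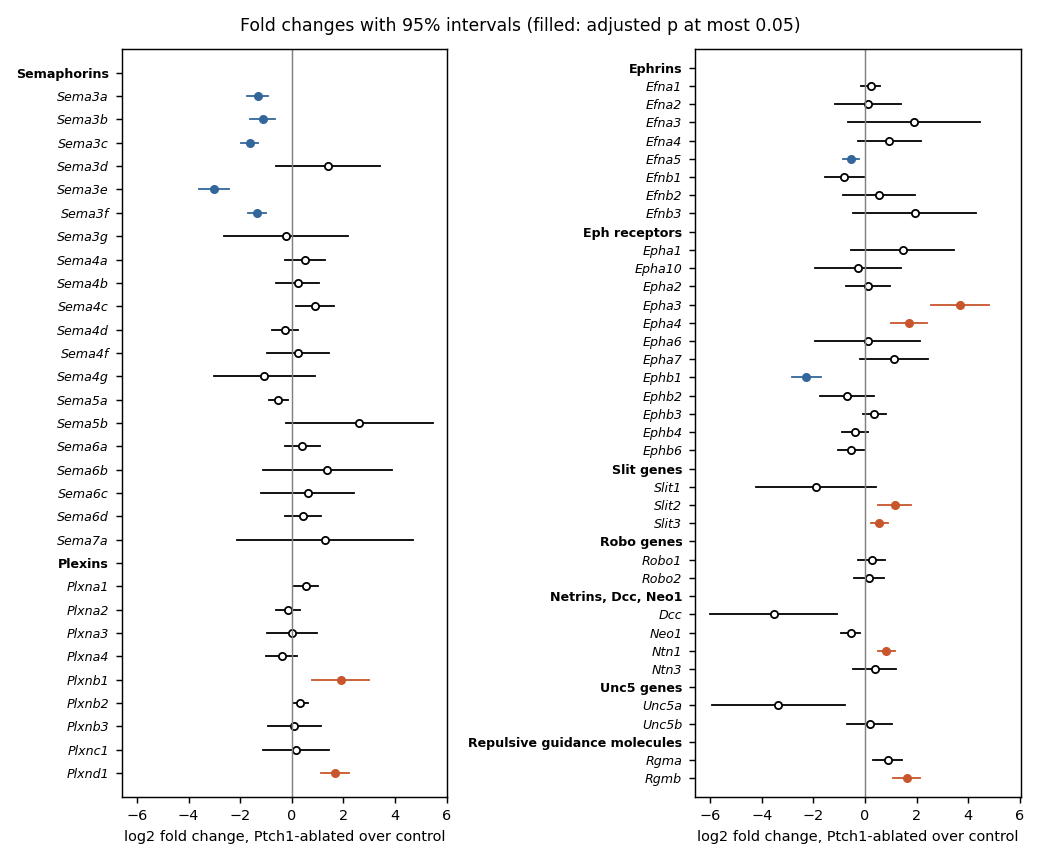
Log2 fold change (Ptch1-ablated over control, x axis) of the 62 members with at least 10 counts in at least 3 libraries, ordered by family, with bars for the 95% interval from edgeR. Filled points passed an adjusted p of 0.05 (blue lower, orange higher), and 5 of the 7 lower ones are class 3 semaphorins.

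The class 3 semaphorins had the highest summed level of the families in controls. Of 7 members, 5 fell by at least 2-fold and none rose (0 by edgeR, with 0 at an unadjusted p under 0.05), and the median log2 fold change of the 7 was -1.33. Their summed level dropped from 702 ± 64.4 to 285 ± 25.2 TPM (SD, n = 3 each), with every ablated library (256 to 304 TPM) under every control library (638 to 767 TPM). TPM is not scaled between libraries as CPM is, and on that scale the median gene was higher in ablated libraries by 0.19 (log2, limma with a pseudocount of 1). This shift applies to all TPM levels compared between the groups below, where it enlarges rises. No member of classes 4 to 7 passed the adjusted p (0 of 13 by edgeR, of which *Sema4c* and *Sema5a* had an unadjusted p under 0.05, at 0.0224 and 0.00972). In DESeq2 *Sema5a* passed, with a log2 fold change of -0.52 (DESeq2 adjusted p = 0.0298).

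The upstream sequences of *Sema3a*, *Sema3c* and *Sema3e* are shown because these genes lie on chromosome 5, with *Sema3d*, and all 3 fell. Each is the 250 bases before the annotated start, 5′ to 3′ on the gene's strand, from RefSeq on GRCm38.p6. Capitals mark CCACCCA or its reverse complement TGGGTGG, the core of the Gli consensus GACCACCCA.
Sema3a, chr5:13396534-13396783, plus strand: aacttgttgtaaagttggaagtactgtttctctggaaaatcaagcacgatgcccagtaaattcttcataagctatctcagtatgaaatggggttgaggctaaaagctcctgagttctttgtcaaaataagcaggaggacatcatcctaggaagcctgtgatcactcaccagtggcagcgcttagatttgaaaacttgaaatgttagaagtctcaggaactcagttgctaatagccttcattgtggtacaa
Sema3c, chr5:17574566-17574815, plus strand: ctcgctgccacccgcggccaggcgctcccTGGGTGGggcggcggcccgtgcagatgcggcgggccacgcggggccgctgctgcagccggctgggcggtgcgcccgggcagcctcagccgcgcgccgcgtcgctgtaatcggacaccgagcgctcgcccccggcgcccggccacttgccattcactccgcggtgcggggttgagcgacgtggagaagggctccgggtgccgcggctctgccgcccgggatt
Sema3e, chr5:14025026-14025275, plus strand: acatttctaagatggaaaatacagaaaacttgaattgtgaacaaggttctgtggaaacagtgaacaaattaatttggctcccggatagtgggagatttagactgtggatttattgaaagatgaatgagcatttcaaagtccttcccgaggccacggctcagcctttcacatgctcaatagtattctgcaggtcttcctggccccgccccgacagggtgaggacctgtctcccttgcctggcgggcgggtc

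These sequences differ in composition, with 78.4% G and C for *Sema3c*, 48.0% for *Sema3e* and 40.8% for *Sema3a*. The full consensus GACCACCCA, searched on both strands from 250 bases before to 50 after each start, was in 0 of 74 windows of the 56 members matched and in 0.253% of all 32851 windows. The shorter core CCACCCA, which the consensus contains and which was chosen after the values were seen, was in 7 of the 74 member windows and in 9.30% of all windows. Of the 12 matched members past the adjusted p, *Sema3c* alone held it, 221 bases before the start. A match in letters is a description and not a binding site. In the order of protein-coding genes of the RefSeq table, *Sema3d* and *Sema3a* are adjacent, 3 genes lie between *Sema3a* and *Sema3e*, and 15 between *Sema3e* and *Sema3c*, of which 3 were tested and 0 were called. On chromosome 9, *Sema3b* and *Sema3f* enclose 3 genes, of which 2 were tested and 0 were called.

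*Sema3c* (Entrez 20348), a secreted semaphorin that acts through neuropilins, was the most abundant member in controls. It had 913, 1059 and 1195 CPM (counts per 1000000 of the scaled library total) in control replicates 1 to 3 and 288, 347 and 387 CPM in the ablated ones. The highest ablated library thus lay well under the lowest control. The log2 fold change was -1.63 ± 0.15 (SE, by edgeR with adjusted p = 2.23e-05), a 3.10-fold fall.

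The steepest fall among the members past the adjusted p was that of *Sema3e* (Entrez 20349), which encodes the semaphorin that binds plexin D1 without a neuropilin. It had 33.2, 45.6 and 45.0 CPM in controls and 5.63, 5.31 and 4.31 CPM in ablated libraries, with a log2 fold change of -3.02 ± 0.27 (SE, by edgeR with adjusted p = 2.17e-05). The ablated libraries were close to each other and far from the controls. *Sema3e* was a minor component in both groups, at 1.76 ± 0.20% of the summed class 3 TPM in the control group and 0.629 ± 0.135% in the ablated group (SD, n = 3 each).

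*Sema3a* (Entrez 20346), the classical repellent of sensory axons that signals through neuropilin-1, had 152, 187 and 222 CPM in controls and 61.8, 86.1 and 75.7 CPM in ablated libraries (log2 fold change -1.33 ± 0.19, SE, by edgeR with adjusted p = 0.000723). *Sema3f*, a ligand of neuropilin-2, had 206, 175 and 156 against 73.1, 73.9 and 65.3 CPM (-1.34 ± 0.16, SE, by edgeR with adjusted p = 0.000197). *Sema3b* had 96.1, 102 and 75.9 against 48.8, 29.4 and 46.7 CPM (-1.13 ± 0.22, SE, by edgeR with adjusted p = 0.00744). In all 3 genes the groups were apart. On the log2 scale the value of *Sema3b* was smaller than 1 in size without ablated replicate 2 (-0.93), without that library and control replicate 1 together (-0.90), with library totals only (-0.97) and in limma on TPM with a pseudocount of 1 (-0.97) or 0.1 (-0.99), although its adjusted p stayed under 0.05 in every alternative run (highest 0.0420).

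The last members of the class, *Sema3d* and *Sema3g*, were scarce and did not pass, and their groups overlapped. *Sema3d* had 5 to 74 counts in controls and 58 to 185 in ablated libraries (log2 fold change 1.40, 95% interval -0.60 to 3.40), and *Sema3g* had 3 to 106 and 15 to 118 counts (-0.24, -2.64 to 2.16). *Sema3c* made up 63.3 ± 3.95% of the summed class 3 TPM in the control group and 58.3 ± 3.61% in the ablated group (SD, n = 3 each).

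**Figure D2:**
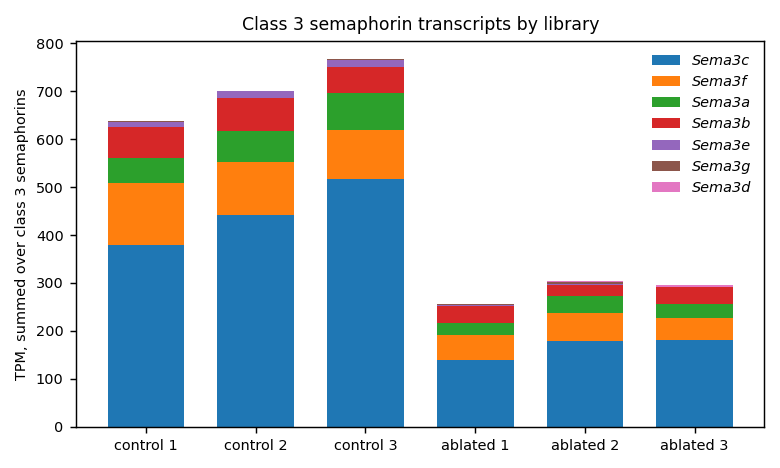
TPM of the 7 class 3 semaphorins stacked for each library, with controls at the left and Ptch1-ablated libraries at the right. Each ablated bar (256 to 304 TPM) is lower than each control bar (638 to 767 TPM), and *Sema3c* is the largest segment in all 6.

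Among the membrane-bound semaphorins, *Sema5a*, which carries thrombospondin repeats, was the most abundant by TPM, at 27.4 ± 5.24 in controls (SD, n = 3) and 22.1 ± 1.98 in ablated libraries (SD, n = 3). It had 124, 178 and 134 against 106, 102 and 94.9 CPM, with a log2 fold change of -0.52 (95% interval -0.90 to -0.15, edgeR adjusted p = 0.0867). *Sema4d*, the ligand of plexin B1, had overlapping groups and a log2 fold change of -0.27 (95% interval -0.78 to 0.24). *Sema5b* had 1, 0 and 67 counts in controls and 160, 182 and 96 in ablated libraries, and its value of 2.61 (edgeR adjusted p = 0.290) became 7.69 without control replicate 3 (edgeR adjusted p = 0.00308). That library held 67 counts, the other controls 1 and 0, and *Sema5b* also passed in limma on log2(TPM + 1) (1.62). The remaining 10 members of classes 4 to 7 had fitted log2 fold changes from -1.07 (*Sema4g*) to 1.38 (*Sema6b*), all with an edgeR adjusted p of at least 0.15.

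The plexins, the receptors of semaphorins, showed 2 rises and no fall among 9 members. *Plxnd1* (Entrez 67784), the receptor of Sema3e and well known in endothelial cells, had 10.2, 9.52 and 12.6 CPM in controls and 37.6, 34.3 and 32.4 CPM in ablated libraries. Both groups were tight and apart, and the log2 fold change was 1.69 ± 0.25 (SE, by edgeR with adjusted p = 0.000982). The receptor thus rose while its ligand gene fell, and 4 of 6 vascular endothelial markers were higher in the same libraries, with *Cdh5* and *Tie1* at log2 fold changes of 1.43 and 2.10 and *Kdr*, which did not pass, at -0.40. Whether *Plxnd1* came from keratocytes or from such cells was not tested.

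*Plxnb1*, the receptor of Sema4d, had 98, 54 and 32 counts in controls against 297, 283 and 195 in ablated libraries, which gave a log2 fold change of 1.90 ± 0.51 (SE, by edgeR with adjusted p = 0.0392). This call was marginal. It was lost without control replicate 2 (1.88) or 3 (1.56) or without ablated replicate 1 (1.77), 2 (1.82) or 3 (2.08), and in limma on log2(TPM + 0.1) (2.06), with adjusted p from 0.00577 to 0.157 over all alternatives.

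*Plxnb2* was the most abundant plexin, at 60.2 ± 4.22% of the summed plexin TPM in the control group and 61.1 ± 2.66% in the ablated group (SD, n = 3 each). It had 255, 310 and 267 CPM in controls and 382, 354 and 310 CPM in ablated libraries. The groups met at the highest control and the lowest ablated library, with a log2 fold change of 0.33 ± 0.14 (SE, by edgeR with adjusted p = 0.196). The A plexins, which serve class 3 semaphorins together with neuropilins, did not pass: *Plxna1* had a log2 fold change of 0.55 (95% interval 0.09 to 1.01), *Plxna2* of -0.15 (-0.61 to 0.32), *Plxna3* of -0.01 (-0.98 to 0.96) and *Plxna4* of -0.40 (-0.98 to 0.19). Of these 4 only *Plxna1* had groups that did not overlap. With scaling by library totals only, *Plxna1* (0.72) and *Plxnb2* (0.50) passed, and *Plxnb2* also passed in limma on log2(TPM + 1) (0.54). In these 2 settings the median log2 fold change of all genes was itself 0.17 and 0.19, against 0.01 in the main fit. *Plxnb3* and *Plxnc1* had overlapping groups, with log2 fold changes of 0.10 and 0.15.

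**Figure D3:**
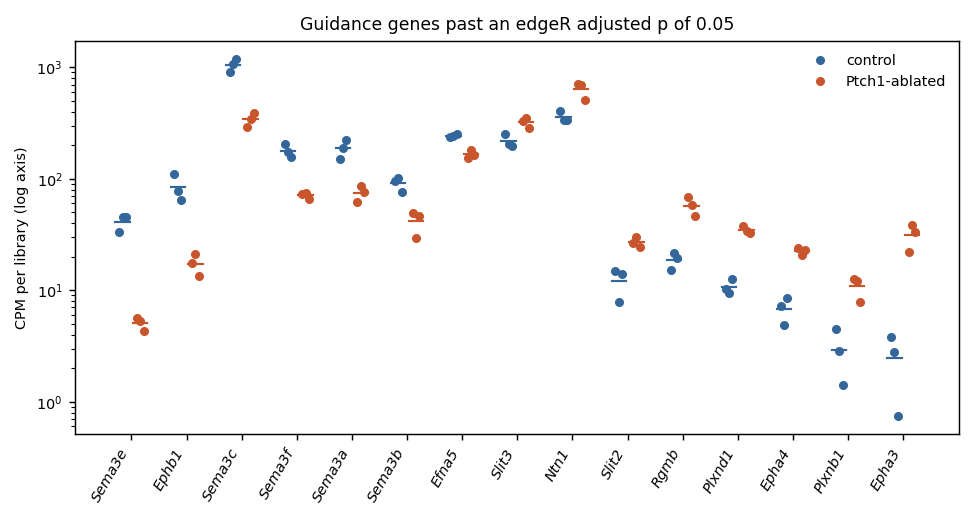
CPM on a log axis in each of the 6 libraries for the 15 members past an edgeR adjusted p of 0.05, ordered from the steepest fall (*Sema3e*) to the steepest rise (*Epha3*). Points are libraries (blue control, orange Ptch1-ablated) and short lines are group means, and the groups are apart in every gene shown.

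Of the Eph receptors, *Epha3* and *Epha4* rose and *Ephb1* fell. *Epha3* (Entrez 13837), a receptor of ephrin-A ligands that is known from mesenchymal and neural tissue, had 83, 53 and 17 counts in controls and 514, 901 and 830 in ablated libraries. This made 2.45 ± 1.56 against 31.2 ± 8.40 CPM (SD, n = 3 each) and a log2 fold change of 3.67 ± 0.51 (SE, by edgeR with adjusted p = 0.000648), the largest rise of any member that passed. Among the 9 EphA receptors, *Epha3* went from 6.27 ± 4.33% to 31.9 ± 4.98% of the summed TPM (SD, n = 3 each).

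*Epha4* (Entrez 13838), which binds ephrins of both types, had 7.16, 4.84 and 8.49 CPM in controls and 23.7, 20.6 and 23.1 CPM in ablated libraries. The ablated libraries agreed closely and lay above every control, with a log2 fold change of 1.72 ± 0.32 (SE, by edgeR with adjusted p = 0.00487). The summed EphA level was 15.3 ± 2.59 TPM in the control group and 41.0 ± 6.54 TPM in the ablated group (SD, n = 3 each), without correction for the TPM shift given above. *Epha2*, the most abundant EphA receptor in controls, had overlapping groups (log2 fold change 0.11, 95% interval -0.75 to 0.96). *Epha7* had 72, 33 and 225 counts against 224, 166 and 400, with overlapping groups and a log2 fold change of 1.13 (95% interval -0.18 to 2.44). *Epha1*, *Epha6* and *Epha10* had at most 138 counts in any library, and each of these had counts that RSEM divided between genes.

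The fall of *Ephb1* (Entrez 270190), a receptor of ephrin-B ligands, went against the direction of *Epha3* and *Epha4*. Its CPM was 110, 78.0 and 65.0 in controls and 17.6, 21.1 and 13.4 in ablated libraries, which gave a log2 fold change of -2.28 ± 0.26 (SE, by edgeR with adjusted p = 0.000119). All control libraries were more than 3 times the highest ablated one. *Ephb4*, known from venous endothelium and the most abundant Eph receptor here, had 99.4, 146 and 132 against 132, 75.9 and 78.1 CPM with overlapping groups (log2 fold change -0.40, 95% interval -0.90 to 0.11). *Ephb3* had groups that did not overlap (29.1 to 32.2 against 37.0 to 43.7 CPM) but a log2 fold change of only 0.37 (edgeR adjusted p = 0.350). *Ephb2* (-0.70, 95% interval -1.74 to 0.35) and *Ephb6* (-0.54, -1.06 to -0.02), whose product lacks kinase activity, did not pass either. The share of *Ephb1* in the summed EphB TPM was 27.8 ± 7.96% in the control group and 9.04 ± 3.02% in the ablated group (SD, n = 3 each).

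The ephrins are the ligands of the Eph receptors. Of 8 members, *Efna5* alone passed, and by less than 2-fold. *Efna5* (Entrez 13640) had 234, 240 and 250 CPM in controls and 152, 180 and 163 CPM in ablated libraries, with a log2 fold change of -0.55 ± 0.13 (SE, by edgeR with adjusted p = 0.0255). It no longer passed the adjusted p without control replicate 1 (-0.57), 2 (-0.55) or 3 (-0.52), without ablated replicate 1 (-0.49) or 3 (-0.54), with scaling by library totals only (-0.38) and in both limma fits on TPM (-0.33 and -0.34). *Efna1* was the most abundant ephrin, at 132 ± 21.2 and 178 ± 10.9 TPM (SD, n = 3 each). It had 80.8, 98.2 and 69.2 against 98.1, 96.2 and 94.1 CPM, with a log2 fold change of 0.22 (95% interval -0.16 to 0.59). *Efnb1* was lower in all 3 ablated libraries (27.2 to 31.6 against 8.01 to 23.3 CPM), but its ablated libraries were spread widely and its edgeR adjusted p was 0.216. *Efnb3* made up 0 to 7.68% of the summed ephrin-B TPM in control libraries and 14.5 to 31.6% in ablated ones, with a log2 fold change of 1.93 (95% interval -0.45 to 4.31). *Efna2*, *Efna3*, *Efna4* and *Efnb2* had fitted values from 0.11 to 1.89, with edgeR adjusted p of at least 0.39.

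Netrin-1, a secreted laminin-related guidance cue, had 131 ± 11.9 TPM in the control group and 268 ± 56.9 TPM in the ablated group (SD, n = 3 each). These levels include the TPM shift given above, which the CPM values do not. *Ntn1* (Entrez 18208) had 404, 339 and 340 CPM in controls and 711, 692 and 504 CPM in ablated libraries. Every ablated library was above every control, and the log2 fold change was 0.82 ± 0.15 (SE, by edgeR with adjusted p = 0.00524), a 1.76-fold rise that passed the adjusted p in every alternative run. *Ntn3* did not pass (0.37, 95% interval -0.48 to 1.22).

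Of the receptors of netrin-1 with a fold change, none of the 4 passed the adjusted p in edgeR, although *Dcc*, *Unc5a* and *Neo1* had an unadjusted p under 0.05 (0.00889, 0.0147 and 0.00719). *Dcc*, the receptor for attraction, had 77, 91 and 154 counts in controls and 20, 10 and 0 in ablated libraries (log2 fold change -3.55 ± 1.13, SE, by edgeR with adjusted p = 0.0820). *Unc5a*, a receptor for repulsion, had 28, 44.6 and 74 against 1, 3.68 and 11 counts (-3.36 ± 1.17, SE, by edgeR with adjusted p = 0.115). *Neo1*, a receptor shared with the repulsive guidance molecules and far more abundant, had 99.7, 80.0 and 102 against 60.3, 70.3 and 59.8 CPM (-0.56 ± 0.17, SE, by edgeR with adjusted p = 0.0706). The groups did not overlap in these 3 genes, and all 3 passed in DESeq2 (DESeq2 adjusted p 0.00510 for *Dcc*, 0.0314 for *Unc5a* and 0.0211 for *Neo1*). *Unc5b*, the most abundant Unc5 receptor, had 5.96, 19.0 and 16.5 against 15.9, 17.1 and 14.1 CPM, with overlapping groups and a log2 fold change of 0.19 (95% interval -0.68 to 1.06).

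Repulsive guidance molecules are anchored to the membrane by a lipid and act both as ligands of Neo1 and as co-receptors for bone morphogenetic proteins. *Rgmb* (Entrez 68799) rose from 15.2, 21.5 and 19.6 to 68.5, 57.7 and 46.3 CPM, a log2 fold change of 1.62 ± 0.24 (SE, by edgeR with adjusted p = 0.000924). *Rgma* had 15.5, 14.2 and 13.5 against 29.9, 28.7 and 21.3 CPM, with groups that did not overlap and a log2 fold change of 0.89 ± 0.26 (SE, by edgeR with adjusted p = 0.0541). It passed in DESeq2 (0.89), in limma with pseudocounts of 1 (1.00) and 0.1 (1.07), and with scaling by library totals only (1.05). The median of all genes was itself 0.19 and 0.22 in these limma fits and 0.17 with library totals only. The summed level of both genes was 18.6 ± 0.963 TPM in the control group and 52.3 ± 10.4 TPM in the ablated group (SD, n = 3 each), again with the TPM shift included.

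Slits are large secreted ligands that repel axons through Robo receptors. *Slit3* dominated, at 96.5 ± 0.745% of the summed Slit TPM in the control group and 95.9 ± 0.152% in the ablated group (SD, n = 3 each). It had 252, 205 and 196 CPM in controls and 328, 351 and 282 CPM in ablated libraries (log2 fold change 0.56 ± 0.15, SE, by edgeR with adjusted p = 0.0368). *Slit2* (Entrez 20563) had 14.7, 7.84 and 14.1 against 26.4, 30.2 and 24.6 CPM (1.15 ± 0.30, SE, by edgeR with adjusted p = 0.0338). Groups were apart in both genes, yet both results were marginal, and *Slit3* was under 2-fold. *Slit3* no longer passed the adjusted p without control replicate 2 (0.52) or 3 (0.49), without ablated replicate 1 (0.54) or 2 (0.49) and with upper quartile scaling (0.51). *Slit2* no longer passed in edgeR without control replicate 2 (0.91) or 3 (1.26), or without ablated replicate 1 (1.16), 2 (1.07) or 3 (1.21). Nor did *Slit2* pass without control replicate 1 and ablated replicate 2 together (1.22), or in either limma fit of all libraries (1.11 and 1.37). *Slit1* was low, with 27 to 71 counts against 4 to 21 (-1.91, 95% interval -4.23 to 0.41).

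The Robo receptors had overlapping groups. *Robo1* had 27.1, 29.0 and 33.6 CPM in controls and 29.6, 31.6 and 45.8 CPM in ablated libraries (log2 fold change 0.25, 95% interval -0.27 to 0.77). *Robo2* had 26.8, 17.6 and 16.9 against 21.7, 22.6 and 24.5 CPM (0.17, -0.41 to 0.75).

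The order of abundance among all members, compared per length on the TPM scale, differed between the groups. In controls *Sema3c* led at 446 ± 68.7 TPM, followed by *Efna1* (132 ± 21.2), *Ntn1* (131 ± 11.9) and *Sema3f* (114 ± 14.3), and these 3 lay within each other's spread (SD, n = 3 each). In ablated libraries *Ntn1* led at 268 ± 56.9 TPM, followed by *Efna1* (178 ± 10.9), *Sema3c* (167 ± 23.7), *Slit3* (156 ± 24.3) and *Plxnb2* (130 ± 17.0), of which *Efna1*, *Sema3c* and *Slit3* were within each other's spread (SD, n = 3 each). The most abundant cue was thus *Sema3c* in each control library and *Ntn1* in each ablated library.

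Co-receptors, further ligands and intracellular effectors of the same pathways were read from a list of 51 genes. It also held *Plxdc1* and *Plxdc2*, which are named for a plexin-like domain and are not plexins. Of the list, 50 genes were in the table and 46 were tested. Of these 5 were called higher, which with 0 lower by edgeR and 0 by DESeq2 makes 10.9% against 5.49% of all genes, and 1 gene, *Srgap3*, had a lower value at an unadjusted p under 0.05. In all, 8 passed the edgeR adjusted p, all higher (17.4%, against 8.48% of all genes, median log2 fold change 0.26). The neuropilin *Nrp1*, the co-receptor of Sema3a, rose from 341, 271 and 354 to 503, 491 and 462 CPM (0.59 ± 0.14, SE, by edgeR with adjusted p = 0.0173), and *Nrp2* had a value of 0.43 that did not pass (edgeR adjusted p = 0.152). *Robo4*, an endothelial receptor, rose from 25.5, 33.8 and 32.4 to 71.8, 60.9 and 68.6 CPM (1.13 ± 0.20, SE, by edgeR with adjusted p = 0.00327) alongside the vascular markers given above, whose part was not tested. *Ablim1*, an actin-binding protein downstream of netrin signaling, rose from 208, 276 and 245 to 629, 674 and 747 CPM (1.49 ± 0.14, SE, by edgeR with adjusted p = 3.24e-05). *Flrt3* (1.66, 0.0148), *Vasp* (1.05, 0.0119) and *Plxdc1* (3.53, 0.0128) were called as well, given with the log2 fold change and the edgeR adjusted p. *Plxdc1* was scarce in controls, with 2.39, 23 and 61.2 counts against 448, 356 and 296 in ablated libraries, and its 95% interval was wide (1.85 to 5.20). The count of 5 became 3 without control replicate 2.

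**Figure D4:**
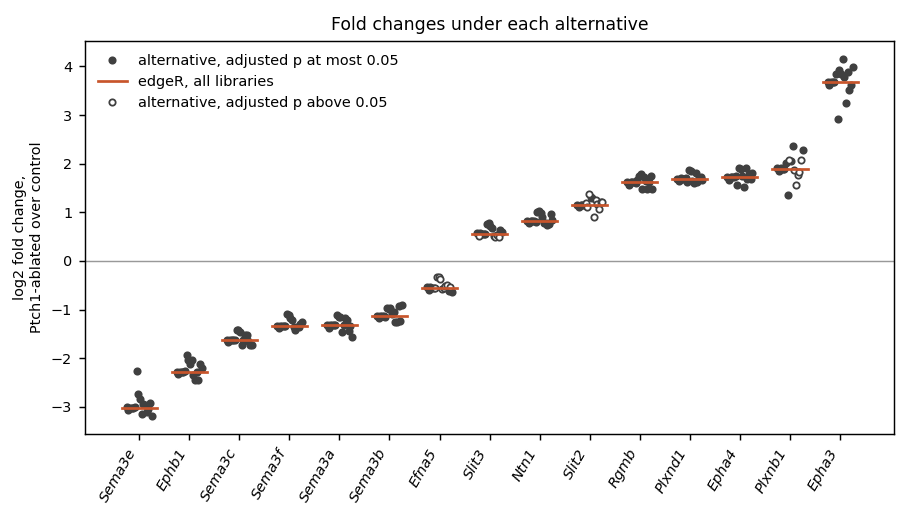
Log2 fold change (y axis) of the 15 members past an adjusted p of 0.05 in the edgeR fit of all libraries (orange line) and under 16 alternatives (points, open where the adjusted p was above 0.05). Directions held in all, and open points occur for *Efna5*, *Slit3*, *Slit2* and *Plxnb1*.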

How the data were processed

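RNA was measured in 6 libraries, 3 per group, with groups and replicate numbers read from the sample titles. The labels name cell sorting, Trizol extraction and a TruSeq library kit, while the study's methods name ribosomal RNA depletion and a BGISEQ platform, a difference that the values do not settle. The authors aligned reads with Bowtie2 (2.2.5) and quantified genes with RSEM (1.2.12), and the submitters' processing notes name the build mm9. The annotation and strandedness are not given in the sources used here. The authors deposited RSEM expected counts (18.6% not whole, because reads shared between genes are split, which touched 8 members), TPM values scaled per length and per library by the authors, and FPKM values deposited by the authors, which like the authors' averages were not used.

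Expected counts were rounded, filtered with filterByExpr and scaled by TMM. The comparison of the groups used the quasi-likelihood test of edgeR, two-sided and without covariates. P-values were adjusted by Benjamini-Hochberg across the 13888 genes tested. SE and 95% intervals of the log2 fold change were derived from the F statistic and its degrees of freedom. CPM is per 1000000 counts of the TMM-scaled total. A count of 0 allows up to 3 counts, or 0.121 to 0.148 per 1000000 of the unscaled library total, for counting error only. The study's methods call the samples biological replicates and do not say how many animals each holds. The fits were tested on simulated data.

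The members and lists were chosen with earlier results of these data known. The result of 1 marker list is not reported here. Named in full were the members past the adjusted p and the most abundant of each family, and others are summarised. Of the list of other pathway genes, those past an adjusted p of 0.05 with a fold of at least 2 are named, and *Nrp1*, *Nrp2* and *Srgap3* were named after their values were seen. Alternatives were RLE, upper quartile or no scaling factors, DESeq2, other count filters, a replicate block, limma on log2(TPM + 1) and log2(TPM + 0.1), no fold minimum, and leaving out libraries. Scaling by library totals only and leaving out control replicate 1 with ablated replicate 2, libraries set apart on an earlier principal component, were chosen after seeing the data. Promoter sequences came from RefSeq (GRCm38.p6) by symbol and are not on the build of the counts. The software was Python 3.11.15 with matplotlib 3.10.9, and R 4.3.3 with DESeq2 1.42.0, limma 3.58.1 and edgeR 4.0.16.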

Additional observations from a re-analysis of the deposited data

How the results depend on the processing

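The counts of members called, 6 higher and 6 lower, stayed within 4 to 8 and 5 to 8 over all alternatives, and without control replicate 1 and ablated replicate 2 together they were 5 and 5. Of the 15 members past the adjusted p, 11 passed in all 16 alternatives and none changed direction. Of the other 47 members, 38 stayed above the threshold in all. With libraries left out singly, members called ran from 4 to 7 higher and from 5 to 6 lower, and other pathway genes called higher from 3 to 6. Of all genes, 467 were called higher and 296 lower. Limma on log2(TPM + 1) called 768 higher, and with no fold minimum 528 were lower and 8 other pathway genes were higher. The median log2 fold change of all genes moved to 0.19 and 0.22 in the limma fits with pseudocounts of 1 and 0.1 and to 0.17 with library totals only, and values there are to be read relative to it. The values showed no pairing by replicate number, with correlations of same-numbered deviations of -0.05, -0.05 and 0.04. Such correlations cannot show whether litters or processing days were shared. With the replicate block, 5 members were higher and 6 lower, and of the 15 members *Slit2* (1.19) and *Efna5* (-0.55) no longer passed the adjusted p. Depth limits the members under about 100 counts, whose intervals span several log2 units.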

Other observations

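The fitted values of scarce ligand genes could depend on a single control library. *Efna3*, an ephrin-A, had 48 counts in control replicate 1 but 4 and 2 in the others, against 44 to 125 in ablated libraries, and its log2 fold change of 1.89 (edgeR adjusted p = 0.414) became 4.35 without that library (edgeR adjusted p = 0.0472). *Efnb3* had 49, 45 and 0 counts in controls and 96, 214 and 110 in ablated libraries, so that control replicate 3 was without a count. Without that library the log2 fold change of *Efnb3* went from 1.93 to 1.35 and did not pass in either fit (edgeR adjusted p = 0.361 and 0.298).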
